A study of Mus musculus with 313 samples.

Results

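The genes described here are 4 members of the Notch pathway, Notch1, Adam10, Rbpj and Hes1, taken by name from the 100 assays of a multiplex quantitative RT-PCR panel that was run on single sorted cells. The cells came from pooled mouse fetal livers at embryonic day 15 in 2 sorting experiments, lacked lineage markers and carried integrin α4β7 together with the α chain of the interleukin-7 receptor. Lymphoid tissue inducer precursors (LTiP) were further gated as PLZF-negative and CXCR5-positive, innate lymphoid cell precursors (ILCP) as PLZF-positive, and the α4β7+ lymphoid precursors (aLP) as negative for both. The number 2 or 3 in a cell's name was taken as the sort, and the cells of 1 group and 1 sort formed a pool. LTiP had 1 pool (14 cells of sort 3), ILCP had 2 (62 and 90 cells of sorts 2 and 3), and aLP had 2 (54 and 92 cells). The mouse strain, the number of fetuses in a pool of livers and the way PLZF was marked are not given in the sources used here.

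Notch is a receptor that is cut when a neighbouring cell presents a ligand. The membrane protease encoded by Adam10 makes the first ligand-dependent cut, γ-secretase then frees the intracellular domain, and this domain joins the DNA-binding protein encoded by Rbpj to switch on target genes. Hes1, a basic helix-loop-helix repressor that recruits Groucho (TLE) co-repressors, is a textbook target. Notch signalling is best known in lymphocytes for directing early progenitors toward the T lineage, and Notch1 is the main receptor in that step. Transcript detection does not measure cleavage of the receptor or signalling itself.

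RBPJ binds DNA at a core written TGGGAA. The windows from 250 bases before to 50 bases after the start sites of the pathway genes on the panel were therefore searched for TGGGAA and its reverse complement TTCCCA, in RefSeq's GRCm38.p6 sequence. Of all 32851 such windows in the table, 25.6% held either form. Among Notch1, Adam10, Rbpj, Notch2, Numb and Dtx1, the letters occurred in the windows of Rbpj alone, and no Hes1 window was used here. The first Rbpj window, chr5:53590096-53590395 on the plus strand, and that of Dtx1, chr5:120711620-120711919 on the minus strand, are shown because the first is a member that holds the letters and the second is a Notch target gene that gave no Ct in any cell. Both read 5′ to 3′ and capitals mark the core. In that build the genes span chr2:26457902-26503822 (Notch1), chr9:70678944-70780229 (Adam10), chr5:53555779-53657445 (Rbpj) and chr16:30065357-30067796 (Hes1). The Rbpj windows searched lie inside the span of that gene, so they belong to internal start sites and do not cover its first base.
Rbpj: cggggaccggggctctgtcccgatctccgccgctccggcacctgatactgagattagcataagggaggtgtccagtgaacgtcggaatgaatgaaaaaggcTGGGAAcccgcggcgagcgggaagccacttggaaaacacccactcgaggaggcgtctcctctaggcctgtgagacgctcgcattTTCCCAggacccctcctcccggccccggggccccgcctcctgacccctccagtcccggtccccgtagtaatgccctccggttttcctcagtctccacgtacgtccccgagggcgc
Dtx1: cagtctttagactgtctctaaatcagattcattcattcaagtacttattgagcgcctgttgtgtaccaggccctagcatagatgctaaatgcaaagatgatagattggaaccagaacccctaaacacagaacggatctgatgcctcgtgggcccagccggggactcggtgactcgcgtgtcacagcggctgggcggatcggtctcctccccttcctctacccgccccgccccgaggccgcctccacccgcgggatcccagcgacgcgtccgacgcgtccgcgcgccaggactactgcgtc
In the Rbpj window 2 matches occur, and the one nearer to the start site begins 65 bases before it, on the opposite strand. A match describes letters and not binding.

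The libraries differed in yield. Detected assays per cell, out of 100, averaged 33.6 in LTiP. The ILCP pools averaged 40.7 in sort 2 and 40.8 in sort 3, against 32.2 and 28.2 for aLP. Of the gate genes, Zbtb16, which encodes PLZF, was detected in 58 of 62 and 87 of 90 ILCP cells, against 11 of 54 and 3 of 92 for aLP. It was also detected in 7 of 14 LTiP cells, whose gate was PLZF-negative. Cxcr5 was detected in 85.7% of LTiP cells. Among aLP cells, whose gate was CXCR5-negative, 14 of 54 (sort 2) and 7 of 92 (sort 3) also gave Cxcr5. So did 38.7% of the sort 2 ILCP cells and 45.6% of those from sort 3. Il7r encodes the interleukin-7 receptor chain that every gate required, yet many cells lacked a detected transcript. Its detection ran from 30.4% of sort 3 aLP cells to 71.4% of LTiP cells, with 42.2% to 55.6% for the remaining pools. A cell counted as detecting a gene when its Ct, the PCR cycle at which the signal crosses threshold, was below 24, and the level was 24 minus the Ct, in cycles. A gain of 1 cycle stands for about a doubling of cDNA. The limit touched few values of the 4 genes: 3 Ct values of Notch1, 8 of Rbpj and 1 each of Hes1 and Adam10 lay at or above it. The nearest counted Rbpj and Hes1 values were 23.9 and 22.8, and the nearest uncounted ones 25.1 and 25.2. Efficiencies and amplicon lengths of the assays are not given in the sources used here, so cycles of different assays may not be on the same scale. Sums over marker genes and rankings of differences take the cycles of each assay as they are. All intervals on shares are exact 95% binomial intervals and cover counting error only.

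Of the 4 genes, Hes1 showed the widest gap in detection between ILCP and the other groups, although its mean level did not pass the test between ILCP and aLP. Hes1 was found in 0 of 14 LTiP cells. It was found in 27 of 62 and 56 of 90 ILCP cells, against 1 of 54 and 9 of 92 for aLP. Notch1 was found in 40.0% to 45.2% of ILCP cells and 44.6% to 63% of aLP cells. Rbpj was found in most cells of both, and Adam10 in a minority of both.

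**Figure D1:**
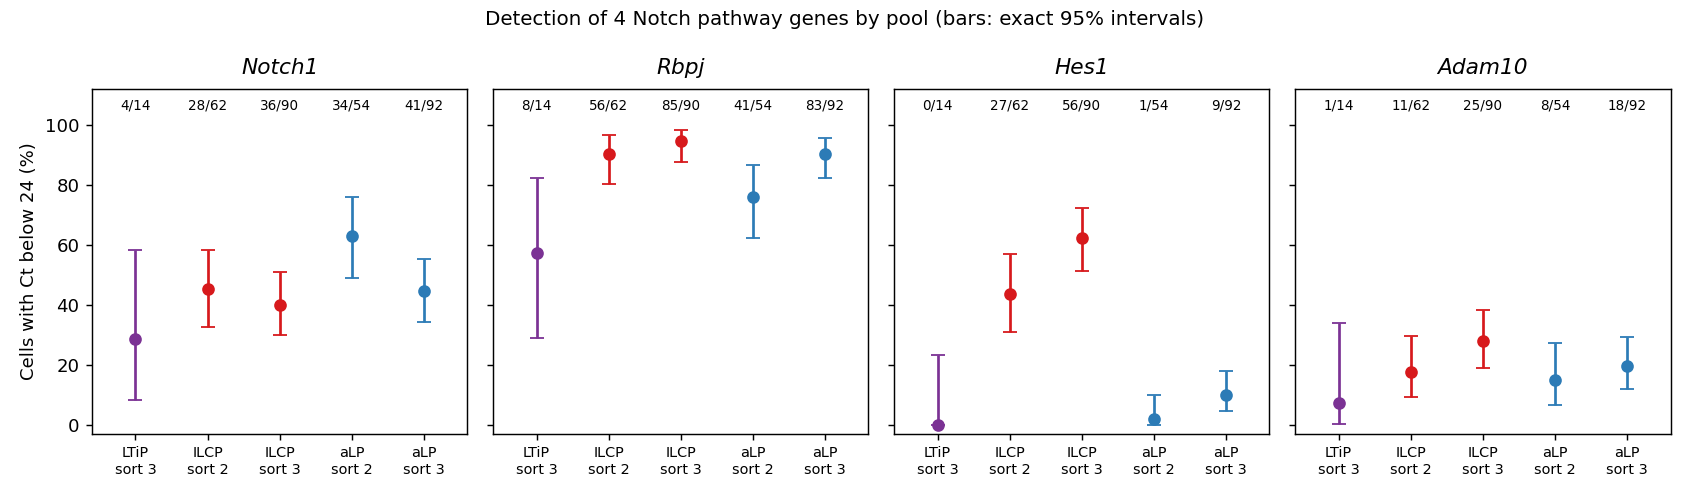
Share of cells with Ct below 24 (vertical axis, percent) for each gene in the 5 pools (horizontal axis), with exact 95% binomial intervals and the number of detecting cells over all cells above each point. The Hes1 shares of the ILCP pools, 43.5% and 62.2%, lie above those of LTiP and aLP, while the Notch1 and Adam10 intervals overlap across pools.

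Notch1, the receptor gene, was detected in 4 of 14 LTiP cells (28.6%, 8.39 to 58.1). In ILCP it was detected in 45.2% of cells of sort 2 (32.5 to 58.3) and 40.0% of sort 3 (29.8 to 50.9). The aLP shares were 63% in sort 2 (48.7 to 75.7) and 44.6% in sort 3 (34.2 to 55.3). The aLP pool of sort 2 was thus the highest and LTiP the lowest, with overlapping intervals for LTiP against each of the other pools of sort 3. In detecting cells the lowest, median and highest Notch1 levels were 2.79, 4.54 and 7.24 cycles in ILCP of sort 2 and 1.62, 4.64 and 7.60 in ILCP of sort 3. In aLP they were 1.33, 4.74 and 7.70 in sort 2 and 2.89, 4.02 and 6.15 in sort 3. The ranges of the groups overlapped almost fully. Averaged over all cells, with 0 for a cell without detection, Notch1 stood at 1.96 ± 0.14 cycles in the ILCP pools and 2.53 ± 0.82 in the aLP pools (n = 2 each, ± SD). ILCP minus aLP was -0.57 ± 0.48 (SE), with a 95% interval from -1.92 to 0.78 and an adjusted p of 0.482 (limma over 91 assays, Benjamini-Hochberg). It was -1.05 in sort 2 and -0.09 in sort 3, and without the aLP pool of sort 2 it was 0.01.

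Adam10, the protease gene, was detected in 1 of 14 LTiP cells (7.14%, 0.181 to 33.9), in 17.7% of ILCP cells in sort 2 and 27.8% in sort 3, against 14.8% and 19.6% for aLP. In detecting cells the lowest, median and highest levels were 0.13, 3.39 and 3.97 cycles in ILCP of sort 2 and 2.97, 3.67 and 4.61 in ILCP of sort 3, against 3.2, 3.78 and 5.02 in aLP of sort 2 and 1.75, 3.42 and 5.28 in aLP of sort 3. Shares and levels of ILCP and aLP overlapped in both sorts. The mean over all cells was 0.78 ± 0.33 cycles in the ILCP pools and 0.63 ± 0.05 in the aLP pools (n = 2 each, ± SD). A difference of 0.15 ± 0.28 (SE; 95% interval -0.64 to 0.94) had an adjusted p of 0.672 in limma, and it ran in opposite directions in the sorts, -0.05 in sort 2 and 0.34 in sort 3. Without the ILCP pool of sort 3 it was -0.08.

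Rbpj, the DNA-binding partner of the cut receptor, was detected in 8 of 14 LTiP cells (57.1%, 28.9 to 82.3), in 90.3% of ILCP cells in sort 2 and 94.4% in sort 3, against 75.9% and 90.2% for aLP. In detecting cells the lowest, median and highest levels were 0.90, 5.43 and 6.84 cycles in LTiP. They were 0.10, 6.66 and 8.66 in ILCP of sort 2 and 3.88, 6.54 and 8.78 in ILCP of sort 3, against 3.7, 6.32 and 8.27 and 3.37, 6.07 and 8.15 in aLP. The ILCP medians lay above the aLP medians in both sorts by less than the spread between cells. Over all cells Rbpj stood at 5.88 ± 0.29 cycles in the ILCP pools and 5.01 ± 0.54 in the aLP pools (n = 2 each, ± SD). ILCP minus aLP was 0.86 ± 0.38 (SE; 95% interval -0.21 to 1.94), with 1.04 in sort 2 and 0.68 in sort 3, and the adjusted p was 0.209 in limma. Yield moved with this gene in 1 pool: the 41 aLP cells of sort 2 with Rbpj detected 34.4 other assays on average (the 4 members left out), and the 13 without it 18.8. In aLP of sort 3 the numbers were 26.6 with Rbpj and 26.2 without it, in ILCP of sort 2 38.7 and 39.3, and in ILCP of sort 3 38.7 and 35.6. With ILCP and aLP cells matched on their number of detected assays the difference was 0.30, in cells with at least 20 detected assays it was 0.40, and without the aLP pool of sort 2 it was 0.48. The matching rested on few cells in some classes of yield. In sort 3 the lowest class held 1 ILCP and 47 aLP cells, and the highest 44 and 1.

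Hes1, the target gene, gave 43.5% detecting cells in ILCP of sort 2 (31 to 56.7) and 62.2% in sort 3 (51.4 to 72.2). In aLP it gave 1.85% (0.0469 to 9.89) in sort 2 and 9.78% (4.57 to 17.8) in sort 3. In both sorts the intervals were apart, and the share was 41.7 points higher in ILCP in sort 2 and 52.4 points higher in sort 3. In detecting ILCP cells the lowest, median and highest levels were 1.80, 4.65 and 7.36 cycles in sort 2 and 2.1, 4.79 and 7.48 in sort 3. The single detecting aLP cell of sort 2 had 5.66 cycles, and the 9 of sort 3 had a lowest, median and highest level of 1.19, 3.42 and 6.67. The levels of detecting cells overlapped, and their mean in ILCP minus that in aLP was -0.99 cycles in sort 2 and 1.01 in sort 3, while the shares differed in the same direction in both.

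Over all cells Hes1 stood at 2.51 ± 0.67 cycles in the ILCP pools and 0.24 ± 0.19 in the aLP pools (n = 2 each, ± SD). Their difference of 2.27 ± 0.42 (SE; 95% interval 1.09 to 3.45) was 1.93 in sort 2 and 2.61 in sort 3, the tenth by size of the 91 assays. It had an unadjusted p of 0.00629 and an adjusted p of 0.0685 in limma, and so did not pass the threshold of 0.05. Of the 4 members 0 passed in limma and 1 (Hes1) had an unadjusted p under 0.05, beside 6.59% of the 91 assays that passed and 29.7% with an unadjusted p under 0.05. The adjusted p of Hes1 ran from 0.0279 to 0.120 over 18 alternatives and was under 0.05 in 6 of them. Leaving out the ILCP pool of sort 2 gave 2.75 (adjusted p = 0.112) and leaving out that of sort 3 gave 1.80 (0.120), whereas leaving out the aLP pool of sort 2 gave an adjusted p of 0.0417 and leaving out that of sort 3 gave 2.40 (0.0369). With cells matched on their number of detected assays, in the same thinly filled classes of yield, the difference was 1.56 (adjusted p = 0.0828 in limma). With a detection limit of 22 it was 1.33 (adjusted p = 0.0993).

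**Figure D2:**
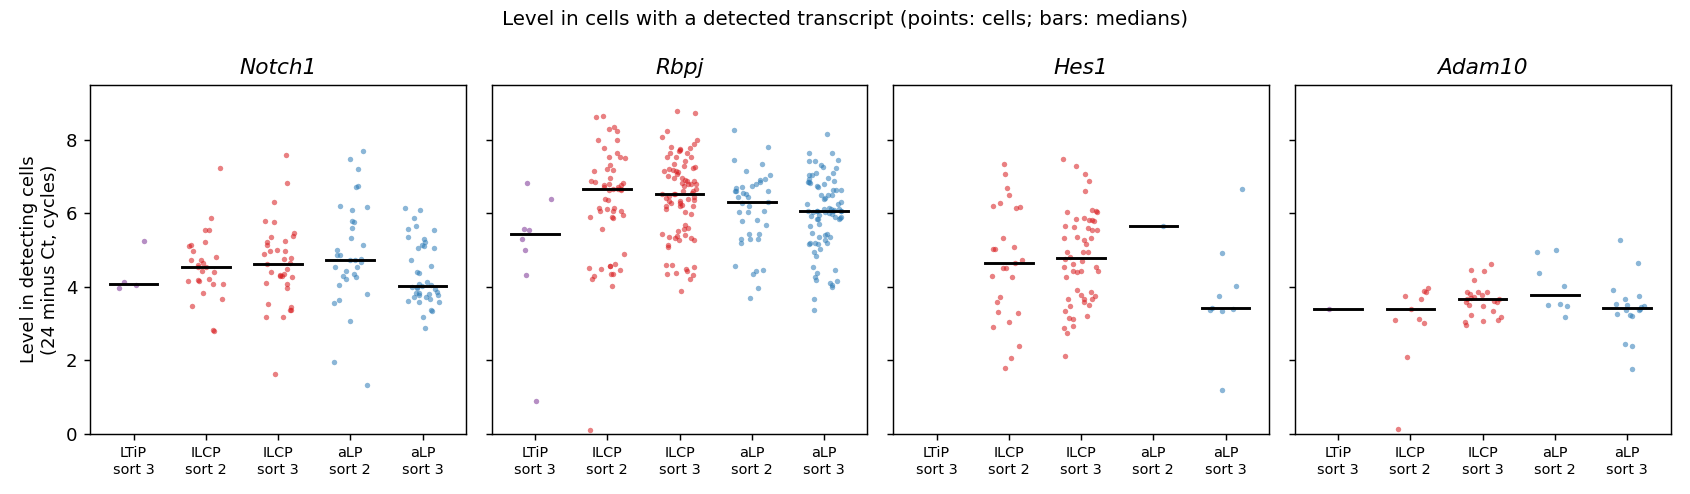
Level in detecting cells (vertical axis, 24 minus Ct, in cycles) for each gene and pool (horizontal axis), 1 point a cell and a bar at the median. The Hes1 medians of the ILCP pools are 4.65 and 4.79 cycles, no LTiP cell is shown for Hes1, and the ranges of the other genes overlap between groups.

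**Figure D3:**
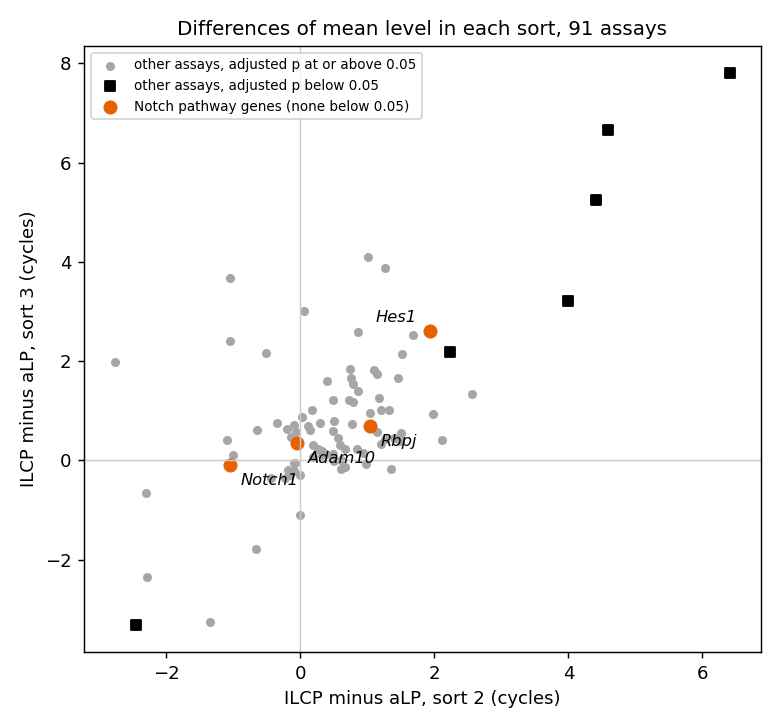
ILCP minus aLP differences of mean level (cycles) in sort 2 (horizontal axis) and sort 3 (vertical axis) for the 91 tested assays, with the 4 Notch pathway genes in orange and other assays with an adjusted p below 0.05 as black squares. Hes1 lies at 1.93 and 2.61, whereas Notch1, Adam10 and Rbpj lie within the bulk of the assays.

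Markers of other cell types differed between the pools as well. Of 8 T cell genes listed, Cd4, Lat, Bcl11b and Zbtb7b were on the panel, and their summed level per cell ranged from 0 to 15 cycles for ILCP of sort 2 and from 0 to 14.6 for ILCP of sort 3 (mean 4.45 and 3.43), against 0 to 9.93 and 0 to 7.41 in the aLP pools (mean 1.35 and 0.93). In LTiP the mean was 6.31. Bcl11b was at 0 in LTiP and in both aLP pools. Within ILCP the mean summed level was 5.35 cycles in Hes1-detecting cells and 3.76 in the others in sort 2, and 4.04 and 2.42 in sort 3. Zbtb7b alone ran the other way between ILCP and aLP (-0.01 in sort 2 and -0.29 in sort 3). The summed level of the 4 natural killer cell genes on the panel averaged 4.01 and 2.45 cycles in ILCP of sorts 2 and 3, against 0.46 and 1.06 for aLP. For 8 LTi genes the means were 7.02 and 4.09 against 3.97 and 1.98, and for the megakaryocyte gene Itga2b 1.25 and 1.79 against 0.11 and 0.06. The myeloid and B cell gene Irf8 was lower in ILCP, with 1.99 ± 0.31 cycles against 4.87 ± 0.30 in aLP (n = 2 pools each, ± SD; difference -2.88 ± 0.31, SE; adjusted p = 0.0138 in limma). The T cell sum was highest in LTiP, where Hes1 was not detected, and higher in ILCP of sort 2 than of sort 3. Over all LTiP cells Lat averaged 3.05 cycles and Cd4, which is also among the 8 LTi genes, 2.56. The part of these markers in the Hes1 difference was not tested.

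The LTi precursors were read within sort 3, where LTiP had 1 pool, so that no test was made and shares were compared by their intervals. Hes1 was not detected in any of the 14 LTiP cells, which allows a share of up to 21.4%, against 62.2% of ILCP cells, a difference of -62.2 points (Newcombe 95% interval -71.5 to -38.3). The Rbpj share was 57.1% in LTiP and 94.4% in ILCP, a difference of -37.3 points (-62.1 to -14.8). For both genes the exact intervals of LTiP and ILCP were apart, with LTiP lower, beside 13% of the 100 assays that were lower with intervals apart and 19% in either direction. Notch1 differed by -11.4 points (-31.2 to 16.3) and Adam10 by -20.6 points (-32.2 to 5.04), with overlapping intervals.

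Set against aLP, LTiP intervals overlapped for all 4 genes, beside 22% of the 100 assays with intervals apart in either direction. The differences of share were -33.1 points for Rbpj (-58.0 to -10.2), -16.0 for Notch1 (-35.7 to 11.8), -12.4 for Adam10 (-23.4 to 12.8) and -9.78 for Hes1 (-17.6 to 12.2). The exact intervals of Rbpj met only at their ends, 82.3 for LTiP and 82.2 for aLP. Among aLP cells numbered 1 to 96, the range of every LTiP cell, the difference was -0.595 points for Notch1 and -1.19 for Adam10, against -38.7 for Rbpj and -8.33 for Hes1. Over whole pools all 4 shares were the lowest in LTiP, whose mean Gapdh Ct was also the highest, 15.2, against 13.4 and 14.1 for ILCP and 13.7 and 14.8 for aLP. The part of this later Ct in the lower shares was not tested. Zbtb16, the PLZF gene, was detected in 7 LTiP cells, and Hes1 in 0 of these 7 and 0 of the other 7.

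The members were also read in combination. Notch1 and Rbpj were detected together in 3 of 14 LTiP cells, in 43.5% of ILCP cells in sort 2 and 36.7% in sort 3, against 55.6% and 40.2% for aLP. Among cells with both, Hes1 was detected in 0 of 3 LTiP cells, in 10 of 27 and 16 of 33 ILCP cells, against 1 of 30 and 5 of 37 for aLP. Cells with both Notch1 and Rbpj were no rarer in aLP than in ILCP in either sort, and few of them held Hes1 in aLP. The part of these 2 transcripts in the Hes1 difference was not tested. No LTiP or aLP cell held all 4 transcripts, and 3 and 4 ILCP cells did in sorts 2 and 3.

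Whether Hes1 follows the receptor and partner genes from cell to cell was asked within each ILCP pool, where both Hes1-detecting and other cells were frequent. Hes1 was no more frequent in cells with Notch1. In sort 2 Hes1 was detected in 10 of 28 ILCP cells with Notch1 (35.7%, 18.6 to 55.9) and in 17 of 34 without it (50.0%, 32.4 to 67.6). In sort 3 it was detected in 18 of 36 with Notch1 (50.0%, 32.9 to 67.1) and in 38 of 54 without it (70.4%, 56.4 to 82). The share was lower in Notch1-detecting cells in both sorts, by 14.3 and 20.4 points, with overlapping intervals. The interval of the difference ran from -36.2 to 10.1 points in sort 2 and from -39.1 to 0.00688 in sort 3. Of the Hes1-detecting ILCP cells, 17 of 27 and 38 of 56 had no detected Notch1.

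For Adam10 the share of ILCP cells with Hes1 was 36.4% in detecting cells and 45.1% in the others in sort 2, and 56% and 64.6% in sort 3. The differences of -8.73 points (-33.9 to 22.3) and -8.62 points (-30.3 to 12.5) had intervals that included 0. For Rbpj the sorts ran in opposite directions. Hes1 was detected in 26 of 56 cells with Rbpj (46.4%) and 1 of 6 without it in sort 2, and in 52 of 85 with Rbpj (61.2%) and 4 of 5 without it in sort 3. With 6 and 5 cells lacking Rbpj, a difference was not detectable at this depth. Nearly all Hes1-detecting cells had Rbpj (26 of 27 and 52 of 56), as had nearly all ILCP cells.

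Each of 67 assays with at least 5 detecting and 5 other cells in both ILCP pools was set beside Hes1 in the same way, as a background. The mean difference over both sorts had a median of 3.33 points and ran from -36.4 to 50.8. It was -17.3 points for Notch1, with 4 of the 67 assays lower, -8.67 for Adam10 and 5.47 for Rbpj. A lower Hes1 share in both sorts was found for Notch1 and Adam10, beside 20.9% of the 67 assays. Intervals were apart in at least 1 sort for 0 of the 3 members, beside 7.46% of the 67 assays. The number of other assays detected per cell was 39.4 in ILCP cells with Notch1 and 38.3 in those without it in sort 2, and 37.1 and 39.6 in sort 3.

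**Figure D4:**
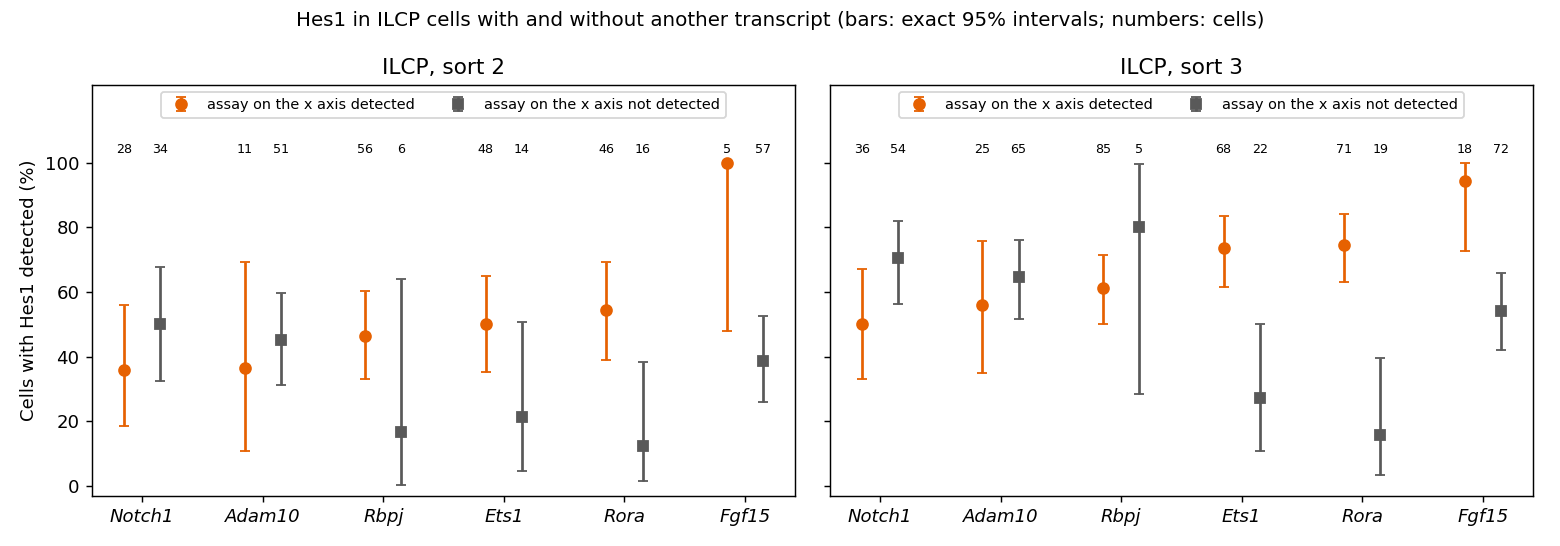
Share of ILCP cells with Hes1 (vertical axis, percent) among cells with and without each transcript on the horizontal axis, in sort 2 and sort 3, with exact 95% intervals and the number of cells above. Points of Notch1-detecting cells (35.7% and 50.0%) lie below those of cells without Notch1, and points of Rora-detecting cells (54.3% and 74.6%) above those of cells without Rora.

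The 3 largest mean differences belonged to Fgf15, a secreted fibroblast growth factor gene (50.8 points), Rora, a nuclear receptor gene needed for group 2 innate lymphoid cells (50.4 points), and Ets1, a lymphoid transcription factor gene (37.4 points). Hes1 was detected in 25 of 46 ILCP cells with Rora (54.3%, 39 to 69.1) and 2 of 16 without it (12.5%, 1.55 to 38.3) in sort 2. In sort 3 it was detected in 53 of 71 with Rora (74.6%, 62.9 to 84.2) and 3 of 19 without it (15.8%, 3.38 to 39.6). The intervals were apart in both sorts. For Fgf15 the counts were 5 of 5 against 22 of 57 in sort 2 and 17 of 18 against 39 of 72 in sort 3, and for Ets1 24 of 48 against 3 of 14 and 50 of 68 against 6 of 22. ILCP cells with Hes1 also detected somewhat more other assays, 39.9 against 37.9 in sort 2 and 39.5 against 37 in sort 3, and the part of this in the relation was not tested.

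**Figure D5:**
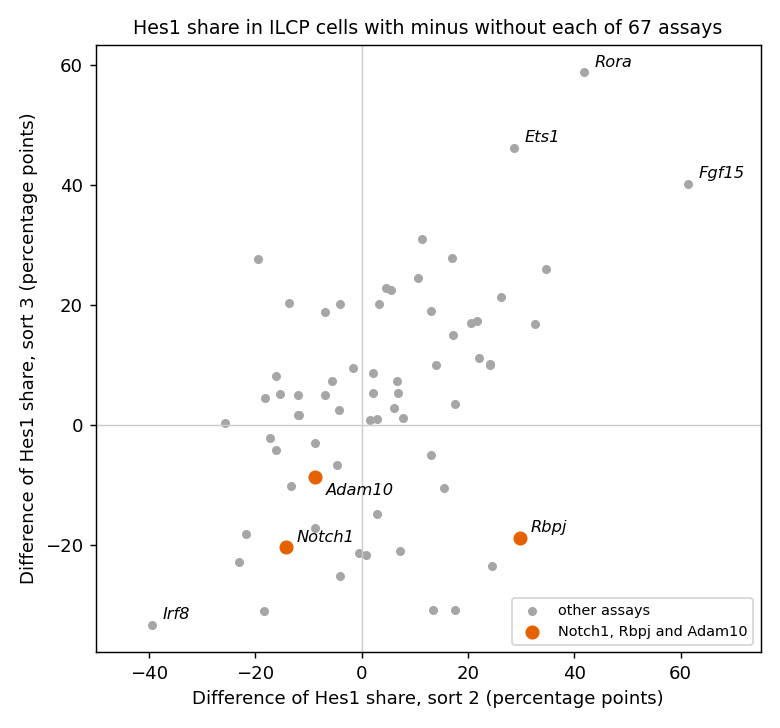
Difference of the Hes1 share (percentage points) between ILCP cells with and without each of 67 assays, in sort 2 (horizontal axis) and sort 3 (vertical axis), with Notch1, Rbpj and Adam10 in orange. Notch1 (-14.3 and -20.4) and Adam10 (-8.73 and -8.62) lie below 0 in both sorts, Rora (41.8 and 58.9) lies far above, and Irf8 (-39.5 and -33.3) lies lowest.

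In aLP, where 10 cells held Hes1, the direction was the other one: Hes1 was detected in 1 of 34 cells with Notch1 and 0 of 20 without it in sort 2, and in 5 of 41 and 4 of 51 in sort 3, with overlapping intervals.

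Levels were compared as well. Over all ILCP cells, with 0 for no detection, Spearman's rho between Hes1 and Notch1 was -0.17 in sort 2 (62 cells) and -0.26 in sort 3 (90 cells). In aLP it was 0.23 (54 cells, only 1 of them with Hes1) and 0.17 (92 cells, 9 of them with Hes1). In ILCP, rho between Hes1 and Rbpj was 0.09 in sort 2 and -0.0013 in sort 3, and between Hes1 and Adam10 -0.03 and -0.02. Among ILCP cells that detected both genes, rho between Hes1 and Rbpj was 0.14 in each sort (26 and 52 cells). Between Hes1 and Notch1 it was -0.12 in sort 2 (10 cells) and 0.18 in sort 3 (18 cells). Notch2, a second Notch receptor gene, was detected in every ILCP cell. Over all ILCP cells its rho with Hes1 was 0.31 in sort 2 and 0.02 in sort 3. These values describe cells that share a pool and a yield, and they are weak.

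Notch1 itself went with Irf8, which encodes an interferon regulatory factor used by dendritic and other myeloid cells and by B cells. Of 55 assays detected in 10% to 90% of the cells of both ILCP pools, Irf8 had the highest mean Spearman's rho with Notch1, 0.49 (0.41 in sort 2 and 0.57 in sort 3), followed by Ifngr1 (0.23) and Irf1 (0.23). Notch1 was detected in 17 of 25 ILCP cells with Irf8 (68%) and 11 of 37 without it (29.7%) in sort 2, and in 23 of 30 (76.7%) and 13 of 60 (21.7%) in sort 3. The intervals were apart in sort 3 and overlapped slightly in sort 2 (46.5 to 85.1 with Irf8, 15.9 to 47.0 without). In aLP cells Notch1 was detected in 62.5% of cells with Irf8 and 64.3% without it in sort 2, and in 42.5% and 52.6% in sort 3, with overlapping intervals. The rho between the levels of both genes in aLP was 0.23 in sort 2 and -0.06 in sort 3. It thus had no common direction, while the Notch1 shares in aLP were lower with Irf8 in both sorts.

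Irf8 was also the assay whose detecting cells lay furthest below the other cells in Hes1 share. Hes1 was detected in 5 of 25 ILCP cells with Irf8 (20%, 6.83 to 40.7) and 22 of 37 without it (59.5%, 42.1 to 75.2) in sort 2, and in 12 of 30 (40.0%, 22.7 to 59.4) and 44 of 60 (73.3%, 60.3 to 83.9) in sort 3. A split by Irf8, made after these values were seen, gave smaller numbers of cells with no common direction. Among ILCP cells without Irf8, Hes1 was detected in 6 of 11 cells with Notch1 and 16 of 26 without it in sort 2, and in 10 of 13 and 34 of 47 in sort 3, a mean difference of -1.21 points. Among those with Irf8 the counts were 4 of 17 against 1 of 8 in sort 2 and 8 of 23 against 4 of 7 in sort 3.

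The few aLP cells with Hes1 are described by 4 genes chosen after their values were seen. In sort 3 the share was higher in the Hes1-detecting aLP cells than in the others for 46 of 85 other assays and lower for 34, with a median difference of 5.09 points. Of 9 such cells, 6 detected Tcf7, an early T cell and innate lymphoid factor gene, against 10 of 83 other aLP cells, and 7 detected Ets1 against 21 of 83. Zbtb16 was detected in 2 of 9 against 1 of 83, and Rora in 2 of 9 against 0 of 83. Rbpj was detected in all 9 and Notch1 in 5, against 74 and 36 of the 83 others. These cells detected 32.7 other assays on average, against 25.9 in the remaining aLP cells. In sort 2 the single Hes1-detecting aLP cell had Ets1, Notch1 and Rbpj and none of Tcf7, Zbtb16 and Rora.

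Among the ILCP pools the genes closest to the other members were as follows. Rbpj levels ran most closely with Bcl2, a survival gene (mean rho 0.44), Il12rb2, an interleukin-12 receptor chain gene (0.38), and Sox4, an HMG-box factor gene (0.38). Hes1 levels ran with Rora (0.34), Cd27 (0.29) and H19 (0.27), and Adam10 levels with Notch1 (0.21), Nfatc1 (0.18) and Ltb (0.17). Adam10 and Notch1 were detected together in 9 ILCP cells of sort 2, where the product of their shares gives 4.97, and in 11 of sort 3, where it gives 10.

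Other genes of the pathway were few on the panel. Of 27 further pathway genes listed, 3 were present. Notch2, a second Notch receptor gene, was detected in every one of the 298 ILCP and aLP cells and in 12 of 14 LTiP cells, so that each Hes1-detecting cell held a Notch receptor transcript. Its mean level was 7.99 ± 0.23 cycles in the ILCP pools and 7.73 ± 0.35 in the aLP pools (n = 2 each, ± SD), a difference of 0.26 ± 0.30 (SE) with an adjusted p of 0.551 in limma. Numb, whose product inhibits Notch, had a share of 28.6% in LTiP and of 35.5% and 30% in ILCP, against 25.9% and 26.1% for aLP, a difference of 0.44 ± 0.24 between ILCP and aLP (adjusted p = 0.310 in limma). Dtx1, which encodes the Deltex ubiquitin ligase and is a Notch target like Hes1, was detected in 0 of 312 cells, which allows a share of up to 0.962%. No cell served as a positive control for that assay.

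The Groucho co-repressors that HES proteins recruit were represented by 5 of 6 listed genes, of which 4 could be tested. In limma 0 of these passed, beside 6.59% of all 91 assays, and 1 had an unadjusted p under 0.05, beside 29.7%. Tle1 stood at 1.42 ± 0.52 cycles in the ILCP pools and 3.73 ± 0.48 in the aLP pools (n = 2 each, ± SD), a difference of -2.32 ± 0.42 (SE; adjusted p = 0.0685 in limma), opposite in sign to that of Hes1 and of like size. Tle3 differed by 1.16 ± 0.45, Tle4 by 0.20 ± 0.38 and Tle2 by 0.24 ± 0.22. Of 15 genes known as Notch targets or as Notch-dependent in early T cells, 11 were tested. Tcf7 alone passed, higher in ILCP by 5.62 ± 0.58 (adjusted p = 0.0138 in limma), and 0 were called lower, beside 5.49% of all assays called higher and 1.1% called lower. Of the 11, 4 had an unadjusted p under 0.05 in limma, beside 29.7% of all 91 assays. In both sorts 6 were higher, beside 58 of all 91 assays. Runx3 (1.72 ± 0.53), Gata3 (1.21 ± 0.33), Bcl11b (1.17 ± 0.25), Il2ra (0.53 ± 0.22) and Lef1 (0.13 ± 0.22) had positive differences in both sorts without passing. Zbtb7b (-0.15 ± 0.24) was the 1 gene lower in both sorts, and Il7r (0.30 ± 0.94), Myc (-0.34 ± 0.68), Runx1 (0.16 ± 0.35) and Rag2 (-0.45 ± 0.49) had differences of opposite sign in the sorts. The median difference was 0.30 cycles over these 11 genes and 0.54 over all 91 assays. For the 4 members it was 0.51, close to that of the panel.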

How the data were processed

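Single cells had been reverse transcribed, preamplified for 22 cycles and run on a microfluidic quantitative PCR system, per the labels' protocols. The authors deposited raw Ct values without normalization, per the file headers, with missing values where no Ct was given; no source used here states when a Ct was set to missing. Groups and sorts were read from the cell titles, although no label ties the number to the 2 sorting experiments. The series' design text gives 339 cells, of which 299 were kept by housekeeping expression; the table held 313, and 312 were used here; cells needed at least 1 of 4 housekeeping assays (Actb, Gapdh, Hprt, Tbp) and 5 detected assays, and 1 aLP cell of sort 2 with 2 was left out. No 2 cells had identical profiles.

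A cell's level was 24 minus the Ct, or 0 at or above 24 or without a Ct, and each pool was given the mean of its cells. Pools, not cells, served as replicates, so p-values measure the spread between 2 pools per group, which may be technical. The 91 of 100 assays that reached 5% of cells in an ILCP or aLP pool were fitted on 4 pools with limma 3.58.1 (R 4.3.3; lmFit, eBayes), by group alone; adjustment was by Benjamini-Hochberg and calls needed an adjusted p under 0.05. The procedure was tested on simulated data with upward changes only and no difference between sorts. That run does not show how the procedure behaves where sorts differ. Shares carry exact Clopper-Pearson 95% intervals, and a share of 0 carries an upper limit, 3 divided by the cells examined. Differences of shares carry Newcombe intervals. In the search for RBPJ letters, sequences came from RefSeq (GRCm38.p6). Same-numbered ILCP and aLP pools deviated from their group means with a correlation of -0.047 over assays, so the sorts were not treated as pairs. Figures used Python 3.11.15 and matplotlib 3.10.9.

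The members and gene lists were chosen with earlier results of these data known. Named genes were the members, the listed pathway genes on the panel, the 3 assays closest to each member by share over the 5 pools and by level in ILCP cells (housekeeping assays left out), and the 3 assays with the largest difference of Hes1 share. Irf8 was followed further after its values were seen, as were the genes shown for aLP cells with Hes1. Alternatives varied the detection limit, cell scaling, cell and assay filters, averaging, cell numbers, yield matching, pools and the block.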

Additional observations from a re-analysis of the deposited data

How the results depend on the processing

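Hes1 was higher in ILCP than in aLP under all 18 alternatives run. With all 4 ILCP and aLP pools kept, it passed limma's threshold with a detection limit of 26 (3.2 cycles), no limit (9.72, on a scale of 40 minus Ct) and only cells numbered 97 or higher (2.73). It also passed with assays detected in at least 20% of a pool. Hes1 met that filter only through the ILCP pools, and its difference stayed at 2.27, so this pass adds no support. Leaving out 1 pool gave Hes1 differences of 1.80 to 2.75. Its mean over detecting cells only was not fitted, because fewer than 3 aLP cells of sort 2 detected it. Rbpj kept its sign under all 19 alternatives run and passed in none. Notch1 ran from -1.15 to 0.0102 with 1 pool left out and was otherwise below 0. Adam10 ran from -0.0835 to 0.383 with 1 pool left out and was -0.34 over detecting cells only. With the sort as a replicate block the differences were unchanged by construction, and the adjusted p was 0.0835 for Hes1, 0.432 for Notch1, 0.202 for Rbpj and 0.710 for Adam10, so the block changed no call of a member. The number of assays called was 6; it was 2 with the block, 1 over detecting cells only, 11 with the 20% filter, 12 with a limit of 26, 16 without one, 13 with shares, and 0 to 20 with 1 pool left out. A fit with 1 pool left out assumes that the lone pool varies like the others. In ILCP the Hes1 difference by Adam10 was -5.46 points with a limit of 22, -5.47 with any Ct and -9.56 within classes of yield, that by Rbpj was -4.89 with any Ct in place of 5.47, and that by Notch1 -1.21 in cells without Irf8, an alternative chosen after seeing the data; the cause was not tested. The LTiP differences of share kept their sign under the 5 alternatives run, although with cells numbered 1 to 96, the range of every LTiP cell, Notch1 differed from aLP by -0.595 points and Adam10 by -1.19. The 14 LTiP cells, from 1 pool, limit every statement about them.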

Other observations

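Cells were also read in successive ranges of 96 cell numbers, a division that no label defines. Within ILCP of sort 3, Notch1 was detected in 8 of 19, 8 of 32 and 20 of 39 cells of the 3 ranges, a wider spread of shares than that between ILCP and aLP of that sort. Hes1 was detected in 10 of 19, 21 of 32 and 25 of 39 of the same cells. In sort 2 it was detected in 21 of 52 ILCP cells numbered 1 to 96 and in 6 of 10 numbered 97 or higher, the range that held all aLP cells of that sort. In aLP of sort 3, Hes1 was detected in 2 of 24, 1 of 35 and 6 of 33 cells of these ranges. The Hes1 share was higher in ILCP than in aLP in each range that held both.

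By the share of detecting cells over the 5 pools, the assays nearest to Hes1 were Megf10 (root mean square difference 11.5 points), Rxrg (12.9) and Bcl11b (14.6). Those nearest to Notch1 were Tet2 (13), Runx1 (13.3) and Tnfrsf1a (16.7). Those nearest to Rbpj were Cbfb (10.1), Hif1a (12.9) and Tle4 (14.9), and those nearest to Adam10 were Lck (5.42), Batf (9.05) and Ptprk (9.47). These are descriptions over 5 pools that also differ in yield.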
